A study of Mus musculus with 335 samples.

Results

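Blood lineage priming is the low expression, in stem and progenitor cells, of genes that mark mature blood lineages. The 6 genes described here are Mpo (granulocytes and monocytes), Mmrn1 (megakaryocytes and platelets), and Car2, Pdzk1ip1, Hbb-bt and Hbb-y (the erythroid line), taken by name from the 13448 entries with a gene symbol in the deposited table of estimated counts, where all 6 had an entry. They were chosen by their measured levels across the 4 sorted groups, in which they had already been seen to be high in HSC, so their levels and folds are a description, and no test was made on them.

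Single cells of wild-type mouse embryos at embryonic stage E11.5 were sequenced by Smart-seq2, a method that reads full-length transcripts of 1 cell per well. HSC (65 cells) were sorted as EPCR+CD45+, a gate that holds the haematopoietic stem cells along with progenitors. Dorsal (93 cells) and Ventral (89 cells) were sorted as Ngfr+Pdgfrb- from the dorsal and the ventral side of the aorta and are labelled as sympathoadrenal. Mesenchymal (88 cells) were sorted as Pdgfrb+Ngfr- from beneath the aorta, on its ventral side. All came from the aorta-gonads-mesonephros (AGM) region, the part of the embryo in which the first transplantable stem cells arise. The labels name no animal, and each group was 1 sequencing pool, so each group counts as 1 sample and sort and pool cannot be told apart.

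In the adult, myeloperoxidase, haemoglobin and platelet granule proteins belong to separate mature cells. Stem and multipotent progenitor cells are known to hold low amounts of transcripts of several of these lineages before commitment, often in varying mixtures from cell to cell. At this stage of mouse development the liver and yolk sac already make red cells, which circulate through the aorta.

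The HSC pool held 82516453 counts of genes with a symbol, against 108409099 in the Dorsal pool, 110598792 in the Ventral pool and 68560755 in the Mesenchymal pool. The median HSC cell held 943772 counts, against 1033890 for Dorsal, 574689 for Ventral and 505916 for Mesenchymal cells. Leukocyte markers (6 of 6 with an entry) summed to 1358 counts per 1000000 (CPM) in HSC, against 317 in Dorsal, 225 in Ventral and 0.204 in Mesenchymal. The last group thus had the least blood signal. Every HSC cell had at least 5 counts of a leukocyte marker. Procr, which encodes EPCR, had fewer than 5 counts in 10 of the 65 HSC cells, and Ptprc, which encodes CD45, in 5; the 14 cells short of either go against their sort at the RNA level, and results are also given for the other 51. The 4 HSC wells of 1 i7 index stand apart, with a median of 4450481 counts, and 1 of them had at least 5 counts of Procr. All 65 HSC index pairs were also used in another pool, and no cell had the same counts as another.

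All 6 genes were at least 2-fold higher in HSC than in the highest of the other groups, on the scale of log2(CPM + 1) of the summed counts. Over all 13446 genes with at least 100 counts, 6.79% were called so. None of the 6 was at least 2-fold lower than the lowest other group, against 11.3% of all genes. The choice of the genes fixes this count, so nothing is read from it. Per kilobase of their longest annotated transcript, the HSC levels stood in the order Car2 (162 CPM per kb), Mpo (108), Hbb-bt (107.9), Pdzk1ip1 (74.7), Mmrn1 (41.04) and Hbb-y (36.9). That order is one of pooled counts, which a few cells can set. Per kilobase, the median HSC cell held 104 CPM of Car2, 51.1 of Pdzk1ip1, 23.65 of Mpo, 11.7 of Mmrn1, 6.41 of Hbb-bt and 0 of Hbb-y, so Hbb-bt stood near Mpo in the pool and below it in the median cell.

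**Figure D1:**
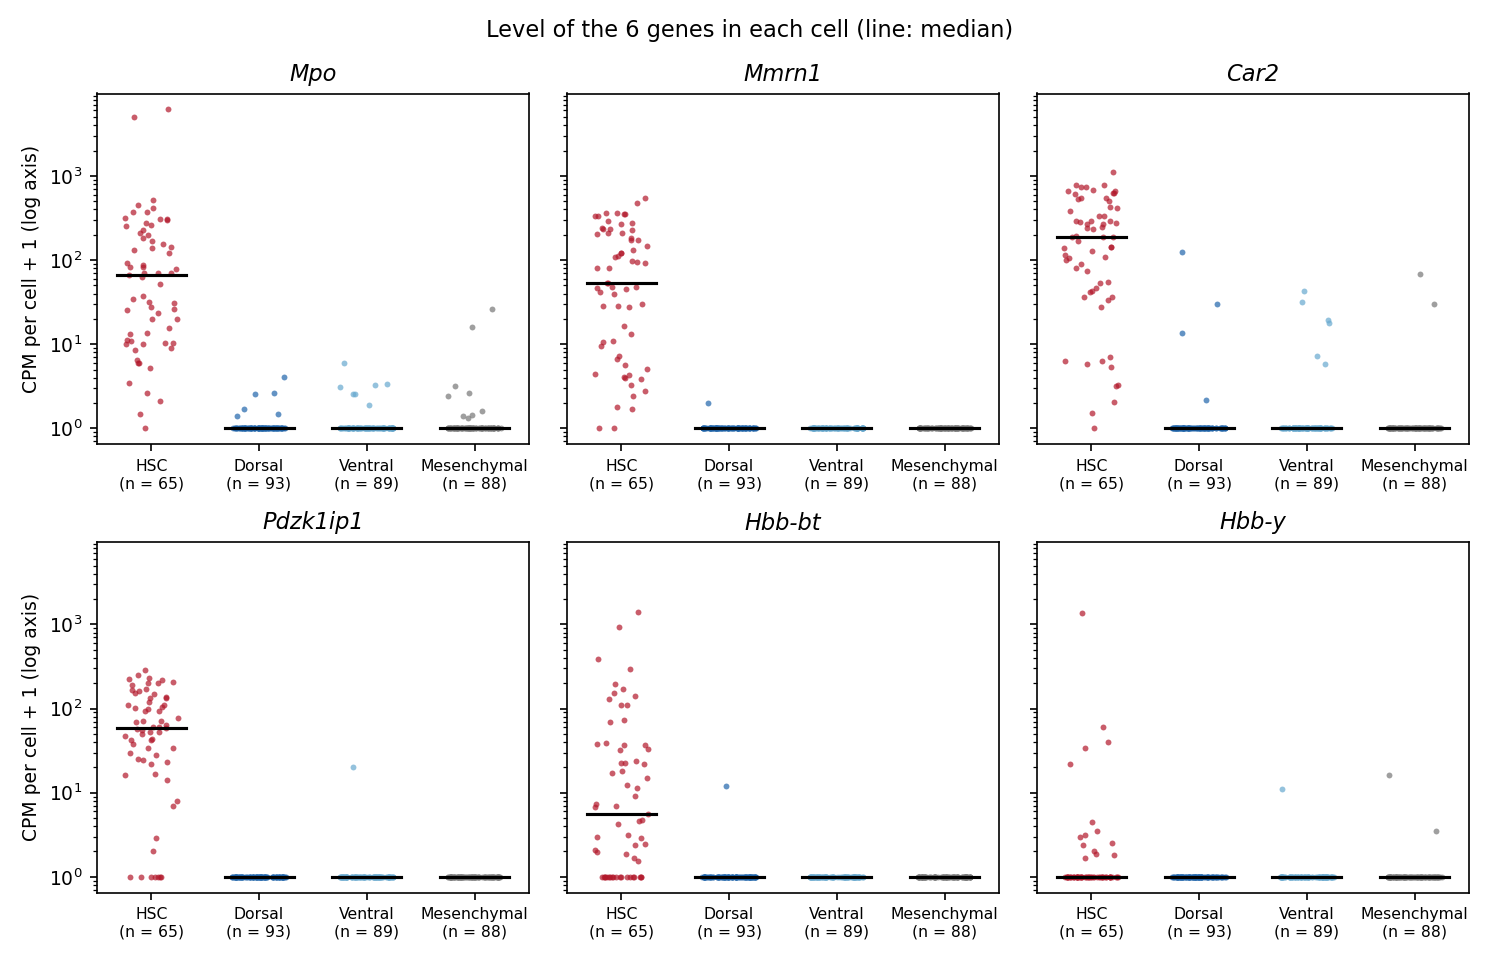
Level of each gene in every cell (CPM + 1, log axis) in HSC, Dorsal, Ventral and Mesenchymal, with a line at the median of each group. HSC cells spread from 0 to 6164 CPM for Mpo, nearly all cells of the other groups lie at 0, and the HSC median of Hbb-y is itself 0.

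The sequences that follow show the DNA upstream of Mpo, Hbb-bt and Hbb-y, the 3 genes whose HSC counts were most concentrated in few cells. Each is the 250 bases before the RefSeq transcription start on build GRCm38.p6, with matches in capitals. The RefSeq start differs from the start of the GENCODE M21 gene, whose span is given with each gene, so that 203 bases of the Mpo window, 73 of the Hbb-bt window and 9 of the Hbb-y window lie inside that span.

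Mpo, chr11:87793534-87793783, + strand: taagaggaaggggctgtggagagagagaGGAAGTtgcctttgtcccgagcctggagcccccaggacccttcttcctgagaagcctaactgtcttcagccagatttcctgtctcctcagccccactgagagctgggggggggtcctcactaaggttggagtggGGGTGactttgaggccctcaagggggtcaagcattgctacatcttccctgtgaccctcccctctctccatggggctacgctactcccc

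Hbb-bt, chr7:103813924-103814173, - strand: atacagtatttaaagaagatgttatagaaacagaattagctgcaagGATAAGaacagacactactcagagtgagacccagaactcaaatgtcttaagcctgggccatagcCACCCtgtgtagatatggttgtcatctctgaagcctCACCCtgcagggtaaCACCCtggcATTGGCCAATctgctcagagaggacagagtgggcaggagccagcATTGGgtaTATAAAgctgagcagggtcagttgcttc

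Hbb-y, chr7:103853208-103853457, - strand: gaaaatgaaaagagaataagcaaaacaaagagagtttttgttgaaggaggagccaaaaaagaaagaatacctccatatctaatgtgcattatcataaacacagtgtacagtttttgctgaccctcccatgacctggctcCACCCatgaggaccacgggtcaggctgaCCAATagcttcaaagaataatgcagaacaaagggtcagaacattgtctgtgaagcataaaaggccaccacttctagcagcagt

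Capitals mark any match, on either strand, to 6 motifs, and neighbouring matches can merge into 1 run. The motifs are GATAAG, bound by GATA factors; GGAAGT, an ETS core such as the myeloid factor PU.1 binds; CACCC, bound by KLF factors; the CCAAT box; TGTGGT, bound by RUNX factors; and the TATA box TATAAA. Hbb-bt held 1 GATAAG, 3 CACCC, 3 CCAAT and 1 TATAAA, Hbb-y held 1 CACCC and 1 CCAAT, and Mpo held 1 GGAAGT and 1 CACCC. Among 32851 windows of the same length, 6.55% held GATAAG, 19.7% GGAAGT, 52.01% CACCC, 33.9% CCAAT, 14.1% TGTGGT and 12.4% TATAAA. The 250 bases before the RefSeq start held 1 CACCC for Pdzk1ip1 and 1 GGAAGT and 1 CCAAT for Mmrn1, whose window lies wholly inside the GENCODE span of the gene. These are matches of letters only, and no binding was measured.

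Mpo encodes myeloperoxidase, the granule enzyme with which neutrophils and monocytes make hypochlorous acid, and lies at chr11:87793581-87804413 on the + strand (GRCm38, GENCODE M21, as are the other gene positions). Its level over all cells of a group was 297 CPM in HSC (exact 95% counting limits 293 to 301), against 0.0797 in Dorsal (0.0357 to 0.153), 0.211 in Ventral (0.134 to 0.316) and 0.371 in Mesenchymal (0.241 to 0.546). The limits of neighbouring groups among the 3 low ones overlap, and the HSC level was 799.5 times that of Mesenchymal (543 to 1230.2). These limits, here and elsewhere, cover counting error only.

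Per HSC cell Mpo ran from 0 through a median of 65.03 to 6164 CPM, while the highest cell held 3.03 CPM in Dorsal, 4.91 in Ventral and 25.2 in Mesenchymal. Low HSC cells overlap the other groups, and 54 of 65 HSC cells had at least 5 counts. Cells HSC 37 and HSC 52, at 4957 and 6164 CPM, held 54.3% of the HSC counts of Mpo; the next highest cell stood at 516.9 CPM. Other granule and myeloid genes parted these cells, in both directions. Prtn3, the neutrophil proteinase 3, had 45.3 CPM in HSC 37 and 2677 CPM in HSC 52. Ms4a3, a marker of granulocyte and monocyte progenitors, had 46.6 and 687 CPM. Nkg7 and Fcgr3 went the other way, with 67.1% and 80.4% of their HSC counts in HSC 37. HSC 37 had 0 counts of Procr, Car2 and Pdzk1ip1, and HSC 52 had 125 CPM of Procr. Kit, named here after its values were seen, had 0 counts in HSC 37 and 192 CPM in HSC 52. Without the 14 cells short of a sort gene, of which HSC 37 is 1, Mpo stood at 234.5 CPM in HSC.

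Mmrn1 encodes multimerin 1, a factor V binding protein that is stored in platelet granules and is also made by endothelial cells, and lies at chr6:60924976-60989378 on the + strand. It had 184 CPM in HSC (181 to 187), against 0.00891 in Dorsal, where all of it was 1 cell with under 1 estimated count, and 0 counts in Ventral and in Mesenchymal. Taking a floor of 3 counts per group, HSC was at least 6773-fold higher than Ventral and at least 4199-fold higher than Mesenchymal. The ratio to Dorsal rests on that single cell and was 20618, with counting limits of 3612.5 to 910119.

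Per HSC cell Mmrn1 ran from 0 through 52.4 to 549 CPM, and 49 of 65 cells had at least 5 counts. The very deep cell HSC 23 supplied 25.7% of its counts; with each cell weighted equally the HSC level was 119.9 CPM in place of 184. Without the 14 cells short of a sort gene it was 137 CPM. Endothelial markers (6 of 6 with an entry, among them Cdh5 and Tie1) summed to 677 CPM in HSC, against 12.9 in Dorsal, 44.6 in Ventral and 51.8 in Mesenchymal. Their summed level per HSC cell ran from 3.85 to 1509.9 CPM, and their part in the level of Mmrn1 was not tested.

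Car2 encodes carbonic anhydrase 2, which interconverts carbon dioxide and bicarbonate in red cells and osteoclasts, and lies at chr3:14886273-14900770 on the + strand. It had 289.9 CPM in HSC (286 to 294), against 2.25 in Dorsal (1.98 to 2.55), 0.591 in Ventral (0.456 to 0.753) and 0.882 in Mesenchymal (0.674 to 1.13). It was the one gene of the 6 with more than 1 CPM in a group other than HSC, the limits of Ventral and Mesenchymal overlap, and the HSC level was 129 times that of Dorsal (114 to 147). In Dorsal, 77.1% of the counts came from a single cell at 124 CPM, a level inside the HSC range. Per HSC cell Car2 ran from 0 through 186 to 1123 CPM, and the 5 highest cells held 39.9% of its counts.

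Pdzk1ip1 encodes a small membrane protein that binds PDZ-domain scaffolds and is used as a marker of early haematopoietic cells, and lies at chr4:115088708-115093899 on the + strand. It had 84.3 CPM in HSC (82.35 to 86.3), against 0 counts in Dorsal, 0.0856 CPM in Ventral (0.0401 to 0.16) and 0 counts in Mesenchymal. Against the floor of 3 counts, HSC was at least 3047-fold higher than Dorsal and at least 1927-fold higher than Mesenchymal. All the Ventral counts lay in Ventral 84, a cell with 2362 CPM of leukocyte markers and 9632 CPM of macrophage markers. Per HSC cell it ran from 0 through 57.7 to 288 CPM, with 55 of 65 cells at 5 counts or more. It was the most evenly spread of the 6, since its 5 highest cells held 32.1% of its counts. Without the 14 cells short of a sort gene, Car2 stood at 325 CPM and Pdzk1ip1 at 86.99 CPM in HSC.

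Hbb-bt and Hbb-y lie in the beta-globin cluster on chromosome 7, at chr7:103812524-103813996 and chr7:103851749-103853216, both on the - strand. Hbb-bt encodes an adult beta chain of haemoglobin, and Hbb-y the embryonic epsilon-like chain of primitive red cells. The first 60 coding bases show how far the 2 can be told apart by sequence, and how little Hbb-bt differs from its neighbour Hbb-bs.

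Hbb-bt: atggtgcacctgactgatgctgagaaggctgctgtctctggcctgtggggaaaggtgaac

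Hbb-bs: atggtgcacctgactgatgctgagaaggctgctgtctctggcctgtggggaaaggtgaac

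Hbb-y: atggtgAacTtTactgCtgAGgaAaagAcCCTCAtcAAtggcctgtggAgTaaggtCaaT

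Capitals mark bases that differ from Hbb-bt (GENCODE M21 transcripts, chromosome 7, counted from the start codon). Hbb-bs differed from Hbb-bt at 1 of 441 coding bases and at 0 of the first 60, and held 59.4% of the 31-base words of the Hbb-bt transcript. Hbb-y differed at 114 of 441 coding bases and shared 0 of those words. Reads of Hbb-bt and Hbb-bs could therefore be divided between them in the authors' counting, and the Hbb-bt values are uncertain to that extent; Hbb-bs is not analysed here.

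Hbb-bt had 75.8 CPM in HSC (73.97 to 77.7), against 0.0922 in Dorsal (0.0442 to 0.17), all of it in 1 cell, and 0 counts in Ventral and in Mesenchymal. HSC was 823 times Dorsal (447 to 1717) and, against the floor, at least 2796-fold higher than Ventral and at least 1733-fold higher than Mesenchymal. Per HSC cell it ran from 0 through a median of 4.51 to 1393 CPM, so a typical HSC cell stood far below the level of the pool. It was at 0 in 19 cells, and HSC 56 and HSC 63, at 1393 and 936 CPM, held 50.2% of its counts. Without the 14 cells short of a sort gene, the HSC level was 85.95 CPM.

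Hbb-y had 23.35 CPM in HSC (22.3 to 24.4), against 0 counts in Dorsal, 0.0413 CPM in Ventral (0.0125 to 0.0999) and 0.0504 in Mesenchymal (0.012 to 0.138). Per HSC cell it ran from 0 through a median of 0 to 1372 CPM, with 50 of 65 cells at 0. The single cell HSC 54 held 90.7% of the counts, 1747 of 1927, so the HSC level of Hbb-y is in the main the level of 1 cell. Without the highest cell of each group it was 2.21 CPM, and without the 5 highest it was 0.1996 CPM and Hbb-y was not called. HSC 54 had 0 counts of Hbb-bt, 444 CPM of Procr and 92.1 CPM of Ptprc, and the cell highest for Hbb-bt, HSC 56, had 1.54 CPM of Hbb-y. Among the 13 HSC wells with an index in common with HSC 54, 6 had at least 1 count of Hbb-y and 0 had 5 or more, against 7 and 4 of the 51 other wells. Without the 14 cells short of a sort gene, Hbb-y stood at 31.8 CPM.

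**Figure D2:**
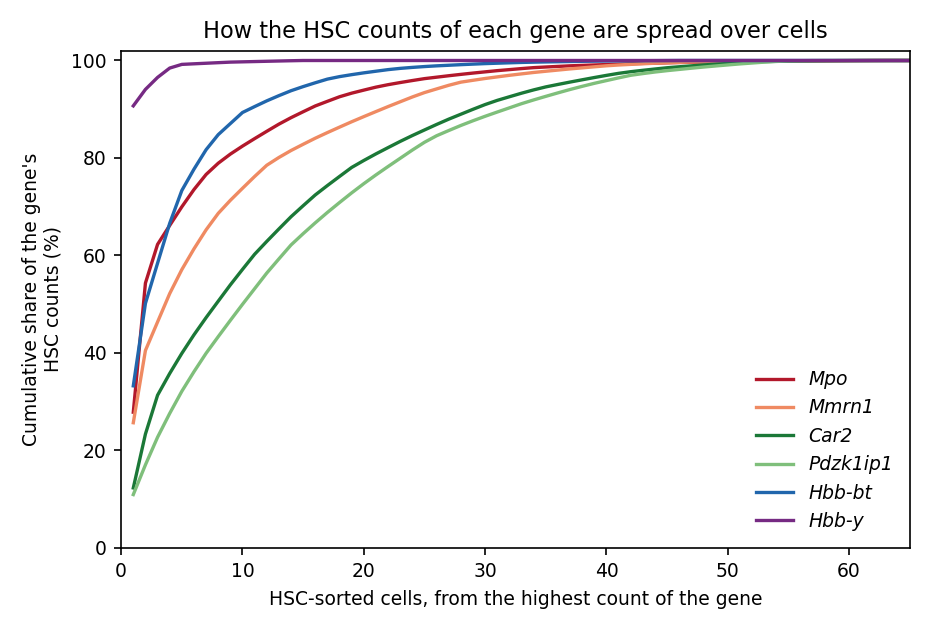
Cumulative share of each gene's HSC counts (vertical axis, %) over the 65 HSC cells, ranked for each gene from its highest count. The curve of Hbb-y starts at 90.7% with 1 cell, while Pdzk1ip1 and Car2 reach 32.1% and 39.9% with 5 cells.

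One further globin entry was analysed here, Hbb-b1, an adult beta-globin name, with 9.94 CPM in HSC, against 0.296 in Dorsal, 0.0404 in Ventral and 0.0564 in Mesenchymal. GENCODE M21 holds no gene of that name, so its sequence was not compared with that of Hbb-bt. Whether the entries of Hbb-b1 and Hbb-bt share reads was not tested. Of 7 red cell markers, 2 were analysed here, Alas2 and Epb42, and they summed to 1.30 CPM in HSC, against 3.23 in Dorsal, 1.06 in Ventral and 3.19 in Mesenchymal. Both red cell genes were thus near 0 in the group in which the globins were high. HSC 54 and HSC 56 had 0 counts of Alas2, the enzyme that starts haem synthesis in red cells. HSC 22, at 110 CPM of Hbb-bt, held 29.7 of the 34.1 HSC counts of Alas2, and HSC 60, at 385 CPM, held 1.3.

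To compare shares of cells across depths, each cell with at least 310000 counts was thinned to that number, which left out 1 HSC, 1 Dorsal, 9 Ventral and 19 Mesenchymal cells, and a cell was positive at 5 counts. Mpo was positive in 46 of 64 HSC cells, or 71.9% (exact 95% limits 59.2 to 82.4), Mmrn1 in 45 (70.3%), Car2 in 54 (84.4%) and Pdzk1ip1 in 50 (78.1%). The globins were found in fewer cells: Hbb-bt in 24 of 64, or 37.5% (25.7 to 50.5), and Hbb-y in 5, or 7.81% (2.59 to 17.3). The limits of the 4 non-globin genes overlap one another, and those of Hbb-bt lie below all 4.

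Outside HSC, Mpo was positive in 2 of 69 Mesenchymal cells, Car2 in 2 of 92 Dorsal, 4 of 80 Ventral and 2 of 69 Mesenchymal cells, and Pdzk1ip1 in 1 Ventral cell. Every other combination of gene and group gave 0 positive cells, for which the exact 95% upper limit is 3.93% of Dorsal, 4.51% of Ventral and 5.21% of Mesenchymal cells. Of the 2 Mesenchymal cells positive for Mpo, Mesenchymal 74 had 4.62 estimated counts, which rounding before the thinning took to 5. Unrounded and unthinned, 1 of 88 Mesenchymal cells was positive for Mpo. Without thinning, 83.1% of HSC cells were positive for Mpo, 75.4% for Mmrn1, 86.2% for Car2, 84.6% for Pdzk1ip1, 49.2% for Hbb-bt and 7.69% for Hbb-y. Without the cells short of a sort gene, the thinned shares were 72% for Mpo, 72% for Mmrn1, 90% for Car2, 84% for Pdzk1ip1, 40% for Hbb-bt and 10% for Hbb-y.

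**Figure D3:**
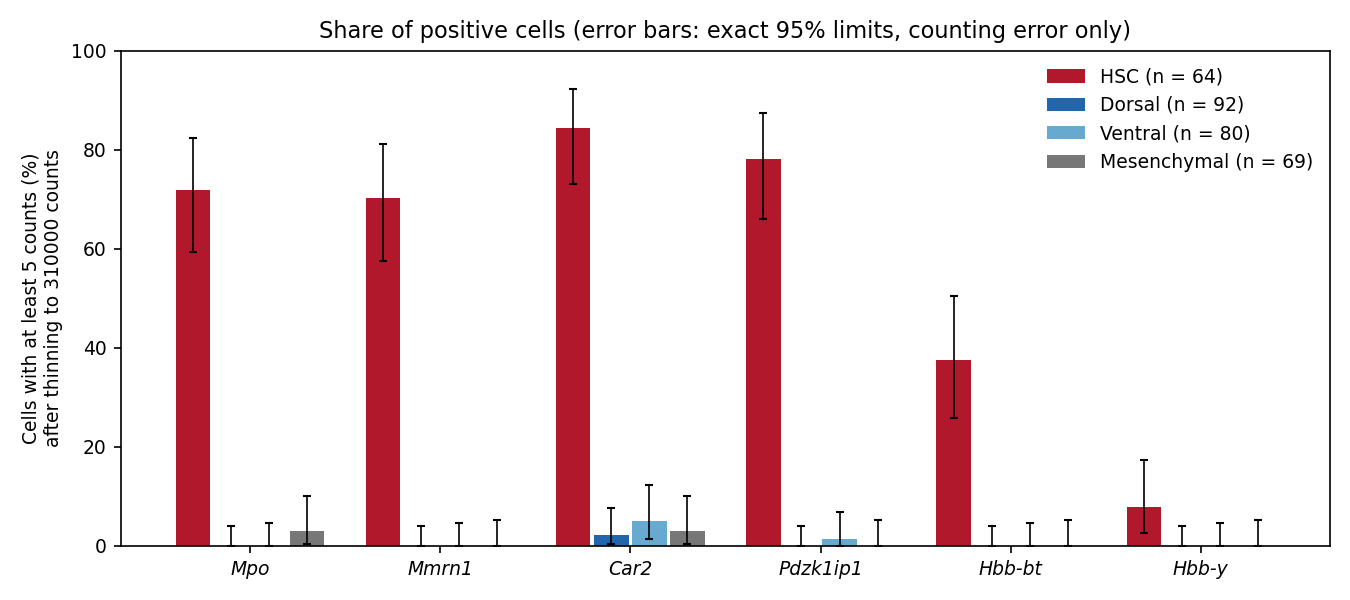
Share of cells with at least 5 counts of each gene after thinning to 310000 counts (vertical axis, %), for HSC, Dorsal, Ventral and Mesenchymal, with exact 95% limits. The HSC bars of the 4 non-globin genes lie between 70.3% and 84.4%, and no bar of another group passes 5.0%.

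Most HSC cells were positive for more than 1 of the 6 genes, which were chosen for being high in HSC. The contrast with the other groups follows from that choice, so nothing is read from it. At least 1 of the 6 genes was positive in 63 of 64 thinned HSC cells, against 2 of 92 Dorsal, 5 of 80 Ventral and 4 of 69 Mesenchymal cells, and at least 2 were positive in 59 HSC cells and in 0 cells of each other group. Of the 4 Mesenchymal cells, Mesenchymal 74 is counted only because its 4.62 counts of Mpo were rounded to 5. Of the 64 HSC cells, 1 held none, 4 held 1, 5 held 2, 19 held 3, 23 held 4, 11 held 5 and 1 held all 6. The median was 4, and it was 2 when 20 counts were needed for a positive cell. The commonest combination, in 10 cells, was Mpo, Mmrn1, Car2 and Pdzk1ip1, and 9 cells held these with Hbb-bt. Counted by lineage, 55 of the 64 cells held genes of at least 2 of the myeloid, megakaryocyte and erythroid lines, and 33 held genes of all 3; among the 50 thinned cells with both sort genes these counts were 44 and 27. Pdzk1ip1, counted here as erythroid, is also used as a marker of early haematopoietic cells, and without it the counts were 54 and 32 of 64. Mpo was the only myeloid gene counted, and Mmrn1 the only megakaryocyte gene. The count for all 3 lines rests on both, and it equals the 33 cells positive for Mpo and Mmrn1 together. The product of their shares gives 32.3 cells. The erythroid genes left out none of these 33 cells, with Car2 positive in 54 of 64 cells and Pdzk1ip1 in 50. Mmrn1 is also made by endothelial cells. Reads passed between wells of 1 pool would also give positive HSC cells, and their part in the shares was not tested. All 13 wells with an index in common with HSC 37 had at least 5 counts of Mpo, against 40 of the 51 others. Taken around the highest cell of Car2, the counts were 12 of 13 wells against 43 of 51. They were 7 of 10 against 41 of 54 for Mmrn1, 7 of 10 against 47 of 54 for Pdzk1ip1 and 6 of 12 against 25 of 52 for Hbb-bt.

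**Figure D4:**
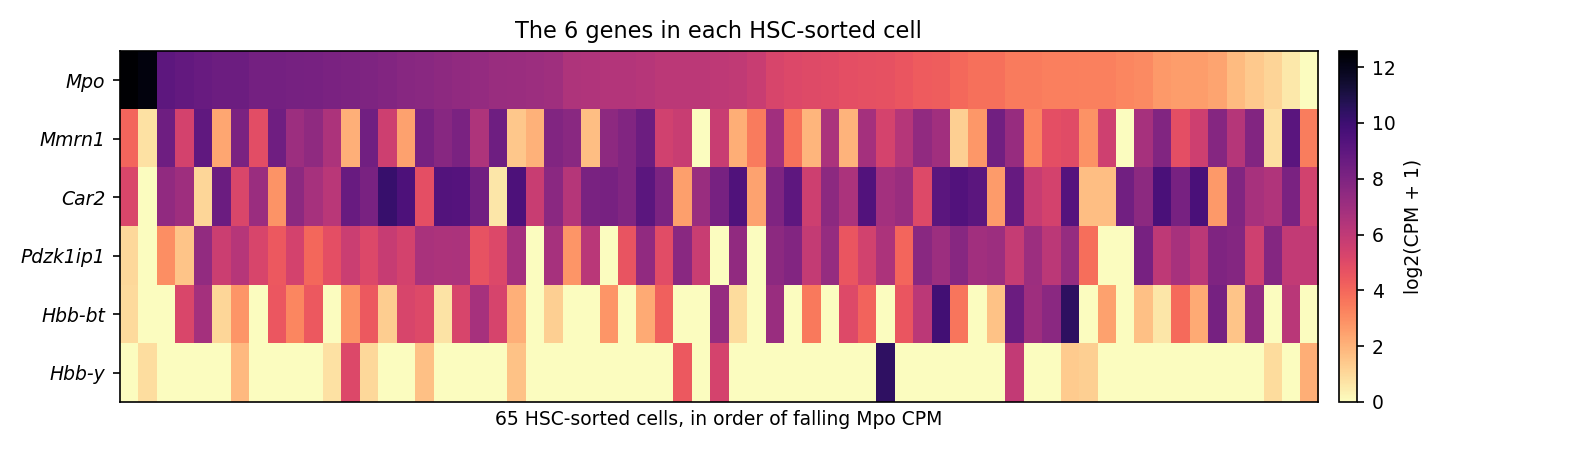
Level of the 6 genes, as log2(CPM + 1) by colour, in the 65 HSC cells, ordered from left to right by falling Mpo. The cells at the left end, with the 2 highest Mpo levels, have 1.02 and 0 CPM of Pdzk1ip1, and Hbb-y is dark in 1 cell, HSC 54.

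Between pairs of genes, Mpo and Mmrn1 were both positive in 33 of 64 cells, Car2 and Pdzk1ip1 in 44, and Hbb-bt and Hbb-y in 2. The product of the 2 shares of each pair gives 32.3, 42.2 and 1.88 cells, close to these counts. Of the 15 pairs, Mmrn1 and Hbb-bt lay furthest from the product, with both positive in 21 cells against 16.9. Whether any pair departs from independence was not tested. Of the 2 globins, 22 cells had Hbb-bt alone and 3 had Hbb-y alone. Over the 65 HSC cells, on log2(CPM/10 + 1), the strongest relation of the 15 pairs was that of Mpo and Pdzk1ip1, with Pearson's r of -0.41 and Spearman's rho of -0.38, and r of -0.515 over the 51 cells with both sort genes. Mmrn1 and Hbb-bt had r of 0.26 and rho of 0.34, and Hbb-bt and Hbb-y had r of 0.03. The cells share 1 pool and differ in depth, and r of a gene with log2 depth ran from 0.04 for Hbb-y to 0.32 for Mmrn1, so these are descriptions of 65 cells.

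Among 9358 genes with at least 5 counts in 10 or more HSC cells, those most like a member over the 65 cells were Rbfa (r of 0.60) and Cmtm7 (0.55) for Mpo, Lsm2 (0.55) and Map4 (0.51) for Mmrn1, Calcrl (0.50) for Pdzk1ip1 and Hbb-b1 (0.52) for Hbb-bt. The place of Hbb-b1 rests on 1 cell: without the highest cell of Hbb-bt its r was 0.41, below that of Sirt3 at 0.45. The part of reads shared between Hbb-b1 and Hbb-bt in this r was not tested. Calcrl, which encodes a receptor for adrenomedullin, stood at 377 CPM in HSC, against 4.64 in Dorsal, 14.9 in Ventral and 11.9 in Mesenchymal. Rbfa, named for a mitochondrial ribosome binding factor, had 34.8 CPM in HSC, against 30.7 in Dorsal, 39.9 in Ventral and 20.7 in Mesenchymal. For Car2 the highest r was 0.44, with Eef1d, whose rho was 0.32 and not among the 5 highest by rho. Hbb-y had too few positive cells for the ranking. These are the highest of 9358 values of r for each gene. How high such values run for unrelated genes over 65 cells was not tested.

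Lists of genes of the same lineages place the 6 beside others. The lists count the 6 themselves, which were chosen for being high in HSC, so each count is also given without them. Over all genes, 6.79% were at least 2-fold above the highest other group in HSC. Of 22 granulocyte and monocyte genes with enough counts, 11 stood at least 2-fold above the highest other group in HSC. Their list had a median log2 fold of 1.17, against -0.63 over all genes. With Mpo left out, 10 of 21 were higher, with a median of 0.88. In these lists 0 genes were 2-fold lower than every other group, beside 11.3% of all genes. After Mpo (log2 fold 7.76) stood Ms4a3 at 4.17 (19.8 CPM in HSC), Prtn3 at 3.92 (95.2 CPM) and Nkg7, a granule membrane protein of cytotoxic and myeloid cells, at 3.03 (7.17 CPM, 67.1% of it in 1 cell). Csf1r, the macrophage growth factor receptor, named here after its values were seen, stood at 12.45 CPM in HSC, against 242 in Dorsal, 148 in Ventral and 1.545 in Mesenchymal, lower than in the first pair of groups and higher than in the last. Macrophage markers (8 of 8 with an entry) summed to 20.9 CPM in HSC, against 844.9 in Dorsal, 668 in Ventral and 1.46 in Mesenchymal, and 7 of the 8 were under 1 CPM in HSC; their part in the Dorsal and Ventral levels of myeloid genes was not tested. Set against Mesenchymal alone, 17 of 21 genes of this list were at least 2-fold higher in HSC, beside 16.6% of all genes.

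Of 22 megakaryocyte and platelet genes, 12 were at least 2-fold higher in HSC than in the highest other group, beside 6.79% of all genes. The median log2 fold of the list was 1.54. Against Mesenchymal alone, 16 of 22 were higher, beside 16.6% of all genes. Without Mmrn1, 11 of 21 were higher than the highest other group, with a median of 1.03. Behind Mmrn1 (log2 fold 7.52) stood Vwf, the platelet-binding factor of endothelium and megakaryocytes, at 5.31 (314 CPM in HSC). Gp9, a subunit of the platelet receptor for von Willebrand factor, stood at 5.03 (37.1 CPM). Vwf was at 5 counts or more in 61 of 65 HSC cells and Gp9 in 30.

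The erythroid genes other than globin parted into a few high ones and many at the level of the other groups. Of 21 measured, 5 were at least 2-fold higher in HSC, beside 6.79% of all genes, with a median log2 fold of -0.43 over the list. Against Mesenchymal alone, 9 of 20 were higher, beside 16.6% of all genes. Without Car2 and Pdzk1ip1, 3 of 19 were higher than the highest other group, with a median of -0.62. Beside Car2 (6.48) and Pdzk1ip1 (6.30), the 2 next were transcription factors, Tal1 at 4.03 (60.3 CPM in HSC) and Gfi1b at 3.80 (19.7 CPM). Alas2 stood at -1.21, with 0.414 CPM in HSC, against 1.995 in Dorsal, 0.342 in Ventral and 2.26 in Mesenchymal. All 3 measured globins passed 2-fold in HSC, but Hbb-b1 is the only one that was not chosen for it, with Hbb-bt at 6.14, Hbb-y at 4.535 and Hbb-b1 at 3.08. Hbb-b1 may not be separate from Hbb-bt, since its sequence was not compared.

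**Figure D5:**
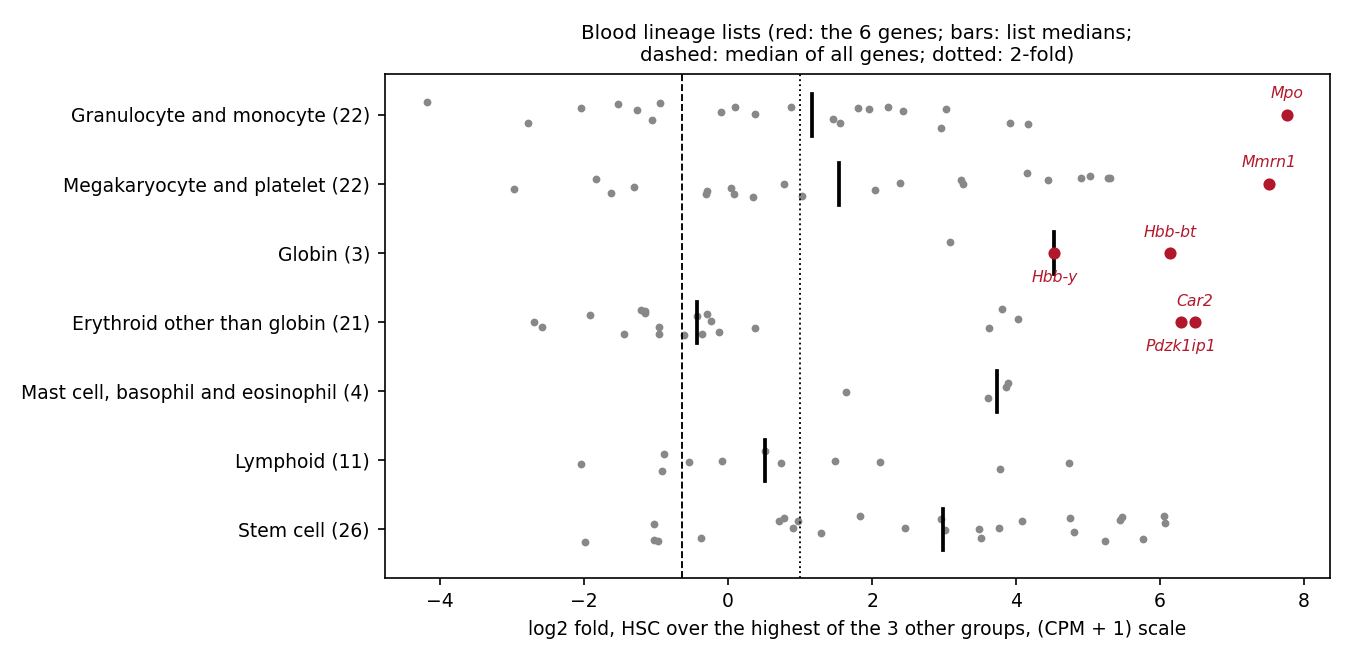
Log2 fold of HSC over the highest of the other groups, on the (CPM + 1) scale, for each measured gene of 7 lists, with the 6 genes in red, a bar at each list's median, a dashed line at the median of all genes (-0.63) and a dotted line at 2-fold. Mpo, Mmrn1, Car2, Pdzk1ip1 and Hbb-bt lie at the right end of their lists, a place they were chosen for, and Hbb-y is the median of the 3 globins.

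Outside the lineages of the 6 genes stood the mast cell, basophil and eosinophil list. In HSC 4 of its 4 genes were at least 2-fold higher, beside 6.79% of all genes. A single cell, HSC 37, held 96.1% of the HSC counts of Cpa3 (mast cell carboxypeptidase) and 71.9% of those of Hdc (histidine decarboxylase). It also held 76.8% of those of Il1rl1 (the interleukin 33 receptor), which had 6.67 CPM in HSC. Srgn (the granule proteoglycan serglycin) was spread more widely, with 386 CPM in HSC and at least 5 counts in 62 of 65 HSC cells. Its highest cell was also HSC 37, with 22.8% of its HSC counts. Without the highest cell of each gene the count was 2. Of 11 lymphoid genes 4 were higher, beside the same 6.79% of all genes. Ltb (lymphotoxin beta) had 27.3 CPM in HSC, Flt3 23.7 CPM and Il2rg 46.9 CPM. Pax5, the B cell factor, had 99.7% of its HSC counts in 1 cell. The stem cell list had 17 of 26 genes higher, beside 6.79% of all genes, led by Procr at 163 CPM in HSC, Tek at 133 CPM, Cd34 at 706.9 CPM and Hlf at 127 CPM. Procr encodes the antigen used in the sort, so its level follows from the gate.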

How the data were processed

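RNA of single cells sorted from E11.5 mouse AGM was measured by Smart-seq2. The authors' deposited table holds estimated counts per gene, made with kallisto 0.43.1 on build GRCm38, per the submitters' processing notes; the annotation and the way transcripts were summed are not given in the sources used here. The values of the other deposited table are log2 of the estimated count scaled by the authors with 1 size factor per cell, with 1 added first; they were used in 1 alternative. Of 14109 entries, 661 without a symbol (2.96% of counts) were left out.

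Counts were summed per group and scaled to CPM with exact Poisson limits. Folds used a pseudocount of 1 CPM and the genes that reached 100 counts in all groups together; a fold of 2 was called. For shares, counts were rounded and thinned at random, with a fixed seed, to 310000 per cell; limits are Clopper-Pearson. With 1 pool and no named animal per group there is 1 sample a group, so no p-value was computed. The cells were taken as deposited and no doublet caller was run. The steps used Python 3.11.15, numpy 2.4.6, pandas 2.3.3 and scipy 1.17.1, and the calling step was tested on simulated data. Apart from depth, the simulated cells of a group differed by counting error only. That test therefore does not cover genes whose counts lie in few cells. The members, lists, tests and alternatives were chosen with earlier results of these data known. Named genes are the 6 members, the 4 highest folds of each list and the genes most like each member by Pearson's r; others are said to be chosen after their values were seen or come from the marker lists. One gene that this rule names is not reported here.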

Additional observations from a re-analysis of the deposited data

How the results depend on the processing

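Over 15 alternatives no value changed sign, and all 6 genes were called at least 2-fold higher in HSC in each, except that Hbb-y was not called without its 5 highest cells, an alternative chosen after seeing the data (5 of 6 called, log2 fold 0.26; 1.66 without the highest cell alone). The log2 folds ran from 4.89 to 9.30 for Mpo, 4.27 to 10.7 for Mmrn1, 4.61 to 7.81 for Car2, 3.23 to 8.83 for Pdzk1ip1, 3.09 to 8.63 for Hbb-bt and 0.26 to 7.28 for Hbb-y, with the ends set mostly by a pseudocount of 10 or 0.1 CPM. The mast cell, basophil and eosinophil count was 2 in place of 4 without the highest cell of the gene, without that cell and the wells that share its index, without the 5 highest cells, and without the HSC cells short of Procr or Ptprc; the last 2 were also chosen after seeing the data. The granulocyte and monocyte count was 6 with a pseudocount of 10 CPM, 7 at 4-fold and 17 against Mesenchymal alone (added after seeing the data), in place of 11; by construction, the first 2 make the call stricter and the last drops the groups with macrophage markers. The erythroid count other than globin was 9 in place of 5 against Mesenchymal alone. With the 6 genes left out of the lists, also added after seeing the data, the erythroid count was 3 and the globin count 1 in place of 3. The median number of the 6 genes per HSC cell was 2 in place of 4 when 20 counts were needed for a positive cell. No paired analysis was possible because each group is 1 pool and the labels give no replicate numbers.

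Depth limits what a 0 means: outside HSC, 3 counts came to 0.0277 CPM in Dorsal, 0.0271 in Ventral and 0.0438 in Mesenchymal. All limits given cover counting error, not the spread between embryos, which these 4 pools cannot show. Sort and pool moved together. Values that rest on few cells are those of Hbb-y, Hbb-bt and Mpo.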
